A study of Homo sapiens with 6 samples.

Results

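Pseudogenes named for housekeeping genes outside the ribosome were followed here. They were chosen by name and gene type: copies of the elongation factor gene EEF1A1, of GAPDH, LDHA, LDHB, PGK1 and ENO1, of the RNA-binding protein gene HNRNPA1, of the cyclophilin gene PPIA, of NPM1, HMGB1, HMGN1, HMGN2, NACA and TPT1, of actin and tubulin genes, of the chaperone genes HSPD1 and HSP90AB1, and of genes for complex I (NDUF), ATP synthase (ATP5) and cytochrome c oxidase (COX). A row counted when its symbol fitted this pattern and GENCODE release 29 (GRCh38) types the gene as a pseudogene. The rule used no measured value. It found 164 of the 6018 genes in the table, and 730 pseudogenes of that release fit the pattern. The other 566 are not in the table, which says nothing about their level.

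C4-2B is an established line of human prostate cancer cells derived from LNCaP. It was studied with 3 parental libraries and 3 of a subline selected in 1 to 20 µM abiraterone, an inhibitor of the androgen-synthesis enzyme CYP17A1, for at least 6 months and kept in 5 µM. Parental cells were passaged in 1% DMSO, and both lines grew in RPMI medium with 10% serum. The labels give passage 0 for the parental cells and 15 to 18 for the subline, so passage and selection cannot be told apart. They mention 10 µM abiraterone before RNA extraction without making clear whether parental cells received it. Whether the subline is 1 clone is not stated in the labels.

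The values come from the authors' DESeq2 fit, which sets 1 condition, C, against another, V. No value per library is given, so values by sample, their spread and the depth are unknown here. The header of the authors' deposited table spells C as control and V as vehicle. The parental libraries carry a V in their titles, and the header ties neither letter to a line, so a direction below names only the letter on the higher side. Each log2 fold change (C over V) is printed with ± its listed standard error. Calls rest on an adjusted p below 0.05 as listed. Levels in C and V are not listed. Derived levels are the pair of normalised counts that average to the mean in the table and stand in the ratio of its fold, which assumes equal library numbers and carries no error. The lowest absolute log2 fold change in the table is 1.20, so each listed gene had to differ by at least that much. Of 9 prostate luminal markers, 3 are listed (KLK2, KLK3 and KRT8), with 2 called on the C side and 1 on the V side and summed derived levels of 19332 in C and 7545 in V. Of 14 leukocyte, endothelial and fibroblast markers, 7 are listed and 6 of them were called on the V side. Summed derived levels in C and V were 0.718 and 61.4 normalised counts for the leukocyte, 0.327 and 28.3 for the endothelial and 82.5 and 297 for the fibroblast markers, and their part in the results below was not tested. In bulk RNA, fewer cells of a type and less RNA per cell cannot be told apart.

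A processed pseudogene arises when a messenger RNA is copied into DNA and inserted elsewhere in the genome, without the introns and usually without the promoter of its source gene. Genes with abundant messages have left the most such copies, and copies decay with age by point changes. A read from a copy can be told from a read of its source, called the parent below, only where the sequences differ. The libraries were read as 50-base single ends, so likeness over 50 bases is what bears on a count.

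The start of the coding sequence is shown for a few copies beside their parents. The stretches below run 5′ to 3′ over the parent's first 90 coding bases, taken from GENCODE release 29 transcripts. Capitals mark bases of a copy that differ from the parent's. They were chosen to show a copy higher in V beside copies higher in C for the same parent, and copies with large and small fold changes.
EEF1A1: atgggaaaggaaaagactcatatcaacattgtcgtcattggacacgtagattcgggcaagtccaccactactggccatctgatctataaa
EEF1A1P6: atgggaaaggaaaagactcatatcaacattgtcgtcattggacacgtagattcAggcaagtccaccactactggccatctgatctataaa
EEF1A1P14: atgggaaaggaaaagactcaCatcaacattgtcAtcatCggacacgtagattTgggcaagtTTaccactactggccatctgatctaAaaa
EEF1A1P24: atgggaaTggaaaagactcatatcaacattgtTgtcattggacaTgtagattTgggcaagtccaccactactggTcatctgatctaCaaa
GAPDH: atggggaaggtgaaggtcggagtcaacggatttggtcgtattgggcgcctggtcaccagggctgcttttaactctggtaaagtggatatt
GAPDHP70: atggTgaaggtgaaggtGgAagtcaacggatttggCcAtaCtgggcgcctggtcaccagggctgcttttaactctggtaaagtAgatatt
PPIA: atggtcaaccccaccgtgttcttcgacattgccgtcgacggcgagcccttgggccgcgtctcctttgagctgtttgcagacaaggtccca
PPIAP60: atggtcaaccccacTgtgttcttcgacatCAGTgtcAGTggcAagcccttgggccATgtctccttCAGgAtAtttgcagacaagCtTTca
COX7C: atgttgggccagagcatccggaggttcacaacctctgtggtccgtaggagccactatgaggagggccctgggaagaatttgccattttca
COX7CP1: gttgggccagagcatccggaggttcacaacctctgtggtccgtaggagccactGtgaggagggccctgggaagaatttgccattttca
COX7CP2: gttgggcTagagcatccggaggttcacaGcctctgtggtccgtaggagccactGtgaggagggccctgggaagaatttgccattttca

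In GRCh38 these copies lie at chr7:22511910-22511999 on the minus strand (EEF1A1P6), chr1:194188967-194189056 on the plus strand (EEF1A1P14), chr3:39358545-39358634 on the plus strand (EEF1A1P24) and chr11:88409134-88409223 on the minus strand (GAPDHP70). The stretch of PPIAP60 lies at chr2:11351627-11351716 on the plus strand. Those of COX7CP1 and COX7CP2 lie at chr13:49187581-49187668 and chr1:202767331-202767418, both on the minus strand. EEF1A1P6 and COX7CP1 differ from their parents at 1 of these bases and COX7CP2 at 3. EEF1A1P24 differs at 6, EEF1A1P14 and GAPDHP70 at 7 and PPIAP60 at 19. A stretch need not stand for the whole copy: PPIAP60 has 91.8% identity to PPIA over its full length. The alignments of both COX7C copies lack the parent's first 2 coding bases.

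Most of these pseudogenes were higher in C. Of the 164 listed members, 157 were called, 131 of them higher in C and 26 higher in V. The share of called members higher in C was 83.4%. As shares of listed genes, 95.7% of members were called, 79.9% on the C side and 15.9% on the V side. The same shares over all genes that the authors' deposited table lists were 89.4%, 46.0% and 43.4%, and over the genes that are not members 89.2%, 45.1% and 44.1%. Every listed gene had passed the table's limits on p and fold, so the count of calls carries no weight by itself and the division between C and V is the description. The median log2 fold change was 3.64 for called members higher in C and -3.22 for those higher in V, against 2.30 and -2.40 for all called genes of the authors' deposited table.

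Pseudogenes of other parents divided less far toward C. Of 277 called ribosomal protein pseudogenes, 192 (69.3%) were higher in C, and of 955 other called processed pseudogenes, 668 (69.9%) were. Nuclear copies of mitochondrial genes went to the other side, with 2 of 16 called higher in C. For protein-coding genes that share was 34.1%. Among genes with a listed mean of at least 100 normalised counts, 35 of 37 called members were higher in C (94.6%), beside 59 of 81 ribosomal protein pseudogenes (72.8%) and 82 of 119 other processed pseudogenes (68.9%). These classes differ in level and length, copies of 1 family share sequence, and the differences between the shares were not tested.

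**Figure D1:**
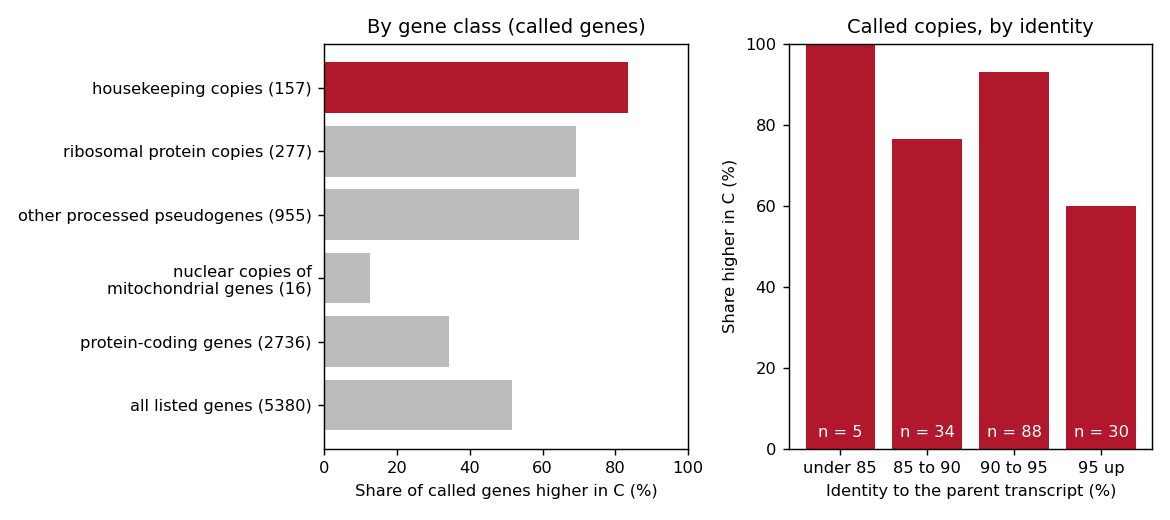
Left: share of called genes that were higher in C (horizontal axis, %) for the housekeeping copies (red) and other gene classes (grey), with the number called in parentheses. Right: the same share for the called housekeeping copies by identity to the parent transcript; bars start at 0 and reach 83.4% for the housekeeping copies on the left and 60% for copies of 95% identity and over on the right.

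Copies of EEF1A1, the factor that delivers aminoacyl-tRNA to the ribosome, had high levels among the members. Of 13 listed copies, 10 were called on the C side and 3 on the V side, and EEF1A1 itself is not listed. EEF1A1P25 stood at 6.91 ± 0.56, EEF1A1P24 at 6.77 ± 0.33, EEF1A1P16 at 4.50 ± 0.17 and EEF1A1P14 at 3.64 ± 0.10 in the authors' deposited table. The derived levels of EEF1A1P25 were 14.3 normalised counts in V and 1719.9 in C. EEF1A1P35 had the highest listed mean of the family, 1020.4 normalised counts, with a smaller difference of 1.50 ± 0.11 in the authors' deposited table. EEF1A1P6 went the other way, at -2.16 ± 0.11 (adjusted p = 8.66e-88, DESeq2 Wald test with Benjamini-Hochberg adjustment in the authors' deposited table) and derived levels of 225 in C and 1008 in V. It is the listed copy nearest to EEF1A1, with 99.5% identity, and 74.3% of its 50-base windows also occur in EEF1A1 transcripts. For EEF1A1P25 that share was 5.58%.

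Copies of glycolysis genes lay mostly on the C side, as most members did, and so did their parents where listed. GAPDH, which oxidises glyceraldehyde phosphate, was itself higher in C at 1.28 ± 0.07, and 9 of its 11 called copies were higher in C per the authors' deposited table. GAPDHP76 reached 7.29 ± 0.36, GAPDHP70 5.59 ± 0.17 and GAPDHP44 2.81 ± 0.12 in the authors' deposited table. GENCODE types GAPDHP76 as an unprocessed pseudogene. The derived levels of GAPDHP70 were 27.8 normalised counts in V and 1336 in C, and those of GAPDHP44 were 217 and 1519.6. GAPDHP73 (-4.47 ± 0.81) and GAPDHP2 (-2.20 ± 0.72) were higher in V per the authors' deposited table, at listed means of 13.7 and 7.16. LDHA, the lactate dehydrogenase chain that favours lactate formation, was at 1.69 ± 0.08, and all 4 listed copies were called higher in C, between 1.86 ± 0.14 (LDHAP2) and 3.03 ± 0.20 (LDHAP7) in the authors' deposited table. Both listed copies of LDHB, the other main chain, were called higher in C, LDHBP2 at 1.75 ± 0.15 and LDHBP1 at 2.06 ± 0.51 in the authors' deposited table. LDHBP1 aligned to LDHB over only 48.8% of its length. PGK1 was higher in C at 1.22 ± 0.08 in the authors' deposited table, but no PGK1 or ENO1 copy is listed, and neither are ENO1 and LDHB.

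Copies of genes for RNA-binding, folding and nucleolar proteins come next. HNRNPA1, a splicing regulator, is not listed, and of its 20 called copies 17 were higher in C and 3 higher in V. HNRNPA1P36 stood at 9.39 ± 1.20, HNRNPA1P61 at 7.78 ± 0.75 and HNRNPA1P50 at 3.63 ± 0.20 in the authors' deposited table. The derived V levels of HNRNPA1P36 and HNRNPA1P61 were 0.175 and 0.606 normalised counts, so how large these fold changes are is weakly determined. HNRNPA1P10 (-3.93 ± 0.42) and HNRNPA1P7 (-1.28 ± 0.22) were higher in V per the authors' deposited table. These are the HNRNPA1 copies nearest to the parent among those listed, at 99.6% and 99.1% identity. Of the windows of HNRNPA1P7 69.5% occur in HNRNPA1 transcripts and 0% are its own. It overlaps an exon of the noncoding gene AC021224.1 on the other strand, and windows were searched on both strands. The third copy higher in V, HNRNPA1P40 (-1.91 ± 0.70 in the authors' deposited table), had 95.2% identity over the aligned part.

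PPIA encodes cyclophilin A, a proline isomerase. PPIA is not listed, and all 13 listed copies were called higher in C, with log2 fold changes from 2.47 ± 0.55 for PPIAP9 to 9.07 ± 1.20 for PPIAP60 in the authors' deposited table. PPIAP3 had the highest listed mean of the family at 136 normalised counts, with derived levels of 4.53 in V and 267 in C and a log2 fold change of 5.88 ± 0.37 in the authors' deposited table. For 7 of the 13 the derived V level was under 1 normalised count.

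NPM1, a nucleolar chaperone of ribosome assembly, was higher in C at 1.29 ± 0.05, and 12 of its 15 called copies were higher in C per the authors' deposited table. NPM1P8 stood at 5.22 ± 0.33, NPM1P31 at 3.24 ± 0.14 and NPM1P5, with the highest listed mean of the family, at 2.44 ± 0.12 in the authors' deposited table. NPM1P46 (-6.27 ± 0.86), NPM1P37 (-3.80 ± 0.47) and NPM1P24 (-2.77 ± 0.36) were higher in V per the authors' deposited table. Their derived V levels were 70.3, 57.1 and 65.1 normalised counts, and their derived C levels 0.907, 4.10 and 9.54. How large the fold change of NPM1P46 is remains weakly determined. The exon of NPM1P37 overlaps an exon of LMBRD1 on the same strand, and LMBRD1 is not listed.

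Copies of chromatin protein genes were mostly higher in C, as most members were. HMGB1 is a DNA-bending nuclear protein, and HMGN1 and HMGN2 bind nucleosomes; none of these parents is listed. Of 14 called HMGB1 copies 13 were higher in C, among them HMGB1P9 (7.63 ± 0.86), HMGB1P10 (3.56 ± 0.17) and HMGB1P5 (1.34 ± 0.07) in the authors' deposited table. HMGB1P5 was the most abundant of these by listed mean, at 2100.4 normalised counts, and has 99.2% identity to HMGB1. HMGN2 copies gave 8 of 9 called higher in C, including HMGN2P17 (6.35 ± 0.75) and HMGN2P46 (2.57 ± 0.17), and HMGN2P3 alone higher in V (-5.49 ± 1.09) per the authors' deposited table. HMGN2P3 is also the listed HMGN2 copy nearest to its parent, at 99.3% identity, with a listed mean of 15.2. HMGN2P46 aligned to HMGN2 over only 59.6% of its length. Its exons overlap exons of other genes, among them SLC30A4, which is not listed, and AC025580.2 (-4.64 ± 1.17 in the authors' deposited table). HMGN1 copies gave 2 called higher in C and HMGN1P36 (-1.27 ± 0.19) higher in V per the authors' deposited table.

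Copies of respiratory chain and ATP synthase genes lay mostly on the C side, as most members did. All 6 called copies of complex I genes were higher in C, led by NDUFB4P7 at 9.35 ± 1.22 in the authors' deposited table, whose derived V level was 0.0776 normalised counts. Of the windows of NDUFB4P7 21.0% are its own, and 136 of 314 occur in other listed members, so its call is not fully separate from theirs. ATP synthase copies gave 11 called on the C side and 4 on the V side, from ATP5F1BP1 (6.74 ± 0.62) to ATP5F1AP7 (-5.50 ± 1.09) in the authors' deposited table. ATP5F1AP7 had a derived C level of 0.617 normalised counts, and 8.13% of its windows are its own. The other listed ATP5F1A copies, ATP5F1AP8 (2.51 ± 0.31) and ATP5F1AP10 (1.72 ± 0.15), were higher in C per the authors' deposited table. ATP5F1EP2 had the highest listed mean of that family and was higher in V at -2.10 ± 0.14 (adjusted p = 4.21e-50, DESeq2 Wald test with Benjamini-Hochberg adjustment in the authors' deposited table), with derived levels of 83.1 in C and 356 in V. Of the cytochrome c oxidase copies, 4 were called on the C side and 3 on the V side. COX7CP1 and COX7CP2, printed above, come from the same parent and lay on opposite sides, at -4.63 ± 0.40 and 2.00 ± 0.12 in the authors' deposited table. Their identities to COX7C were 97.9% and 97.4%, and their derived levels in C and V were 5.51 and 137 for COX7CP1 and 485 and 121 for COX7CP2. Of the windows of COX7CP1 42.7% are its own and 39.9% occur in COX7C transcripts. For COX7CP2 these shares were 55.3% and 27.0%. COX6CP1 (-3.42 ± 0.34) was also higher in V per the authors' deposited table, at 89.8% identity and with none of its windows in another transcript.

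The cytoskeletal and smaller families follow. Actin gamma copies gave 5 called on the C side and 3 on the V side. Of the 5, ACTG1P11 and ACTG1P2 lie on chromosome Y and have 0% own windows. Each of their windows also occurs in another listed copy, so their calls are not separate. Listed actin beta copies gave ACTBP9 (2.70 ± 0.52) higher in C and ACTBP15 (-3.07 ± 0.29) higher in V per the authors' deposited table. ACTG1P12 (4.68 ± 0.38) was the most shifted actin gamma copy above a mean of 20 and ACTG1P14 (1.20 ± 0.20) had the highest mean in the authors' deposited table. The listed tubulin copies TUBAP2 (1.43 ± 0.09), TUBBP1 (1.31 ± 0.08) and TUBBP5 (1.24 ± 0.26) were higher in C per the authors' deposited table. TUBBP5 aligned to TUBB over only 17.1% of its length, at 81.5% identity. Of its windows 0% occur in TUBB transcripts and 52.4% in transcripts of other genes. TUBAP2 had the highest listed mean of all members, 2522 normalised counts. Its nearest alpha tubulin transcript is that of TUBA1B, which is not listed, while TUBA1A was at 1.23 ± 0.11 in the authors' deposited table. All 6 listed copies of TPT1, the tumour protein that is translationally controlled, were called higher in C, with TPT1P5 at 4.09 ± 0.43 in the authors' deposited table. Both listed copies of NACA, a ribosome-associated chaperone subunit, were higher in C, with derived V levels under 1. NACAP2 stood at 9.02 ± 1.21 and NACAP10 at 6.42 ± 1.13 in the authors' deposited table. Of the listed chaperone copies, HSPD1P5 (1.95 ± 0.14), HSPD1P16 (3.24 ± 1.36) and HSP90AB6P (3.61 ± 0.47) were higher in C. HSP90AB7P (-5.43 ± 1.31) was higher in V per the authors' deposited table.

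**Figure D2:**
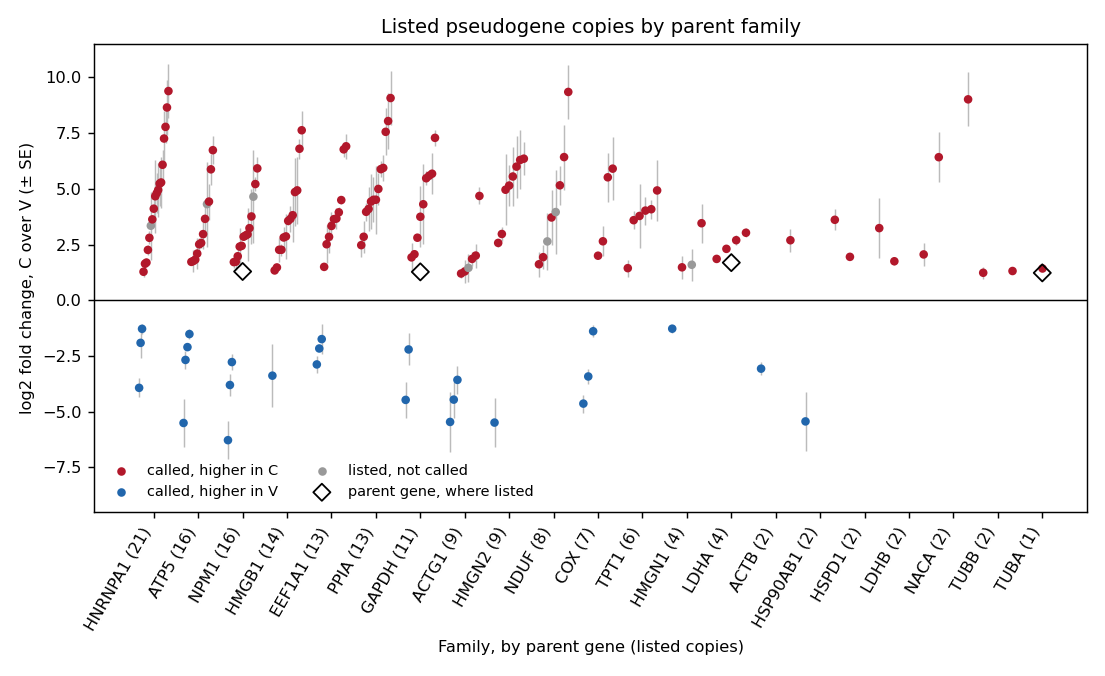
Listed log2 fold change of C over V with its standard error (vertical axis) for each listed copy, grouped by parent gene (horizontal axis, number of listed copies in parentheses); red points were called higher in C, blue points higher in V, grey points were not called, and open diamonds are listed parents. The 13 PPIA copies lie above 0, and HNRNPA1 copies reach from -3.93 to 9.39.

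The members ranged widely in level. Their listed means ran from 1.08 to 2522 normalised counts with a median of 23.4. For 43 called members higher in C the derived V level was under 1 normalised count, and for 6 higher in V the derived C level was. How large these 49 fold changes come out depends on DESeq2's estimator, and they are no bounds. Without them, 88 members were called on the C side and 20 on the V side.

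**Figure D3:**
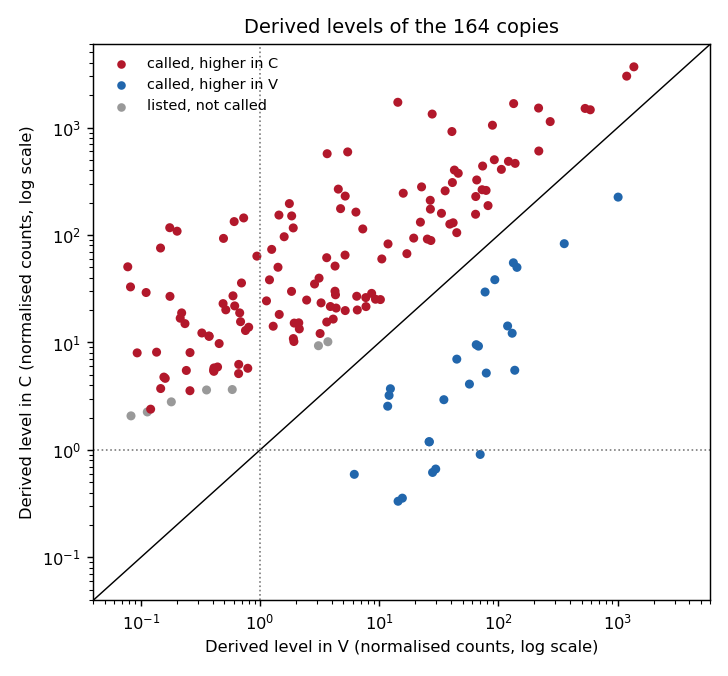
Derived level in V (horizontal axis) and in C (vertical axis), both in normalised counts on log scales, for the 164 listed copies, with the line of equality and dotted lines at 1 normalised count. The 131 called copies higher in C (red) lie above the line and reach 3677 in C, and 43 of them lie left of the dotted vertical line.

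Parents and copies could be compared for GAPDH, LDHA and NPM1. Together with TUBA1A, whose symbol family holds TUBAP2, these parents have 31 called copies. Of these, 26 (83.9%) lay on the parent's side, and those 26 were all farther from 0 than the parent. Each of these parents was higher in C, so lying on the parent's side means no more than being higher in C. Over all called members the share higher in C was 83.4%. The parents themselves stand close to the table's limit of 1.20, so a listed copy on their side had little room to lie nearer to 0. Levels of different genes were compared per kilobase of annotated exon. The listed GAPDH copies together came to 14.6% of the parent's derived level per kilobase in V and to 51.4% in C. For LDHA these values were 78.6% in V and 130% in C, and for NPM1 110% in V and 198% in C. These sums hold only copies that passed the table's limits. The annotated exon length of a parent includes exons of all its transcripts (6210 bases for LDHA and 3828 for NPM1). That can lower its level per kilobase and raise these percentages. Without division by length, the copies summed in C to 1139 normalised counts against 6473 for LDHA and 1965 against 4826 for NPM1. In V they summed to 211 against 2005 and 466 against 1970. For GAPDH the sums were 4855 against 27837 in C and 568 against 11497 in V.

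Likeness to the parent varied among the members. The median identity over the aligned part was 92.9%, from 79.4% to 99.6%, and the median share of 50-base windows found in no other GENCODE transcript was 92.9%. At 51 members 0 windows occur in parent transcripts, and at 3 members each window occurs in some other transcript. At least 1 window is shared with another listed member for 105 of the 164, so counts of these copies are not independent. How reads that fit more than 1 place were counted is not given in the sources used here. A count of a copy may therefore hold reads of its parent or of another copy. Listed copies were longer and nearer to their parents than unlisted ones, with medians of 838 against 540 bases and 92.9% against 89.1% identity. The share listed rose with identity, from 4.26% of copies under 85% to 17.3%, 31.0% and 36.0% in the classes from 85 to 90%, 90 to 95% and 95% up.

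The copies nearest to their parents were divided between the sides more evenly than the rest. Of 30 called copies with at least 95% identity 18 (60%) were higher in C, of 88 with 90 to 95% 82 (93.2%), of 34 with 85 to 90% 26 (76.5%), and all 5 under 85%. These 30 hold 12 of the 26 members higher in V. Among copies higher in C, the median log2 fold change was 2.34 at 95% identity and over, 3.65 from 90 to 95%, 4.20 from 85 to 90% and 1.93 for the 5 copies under 85%, so it did not change in 1 direction with identity. The 55 called members at a log2 of 4 or more on the C side had identities from 84.4% to 95.4%. Across the 131 called copies higher in C, the log2 fold change had a Spearman rho of -0.12 with identity, 0.28 with the share of own windows, -0.23 with the listed mean and -0.19 with length. Across the 26 higher in V, the signed log2 fold change had a rho of 0.35 with identity, -0.09 with the share of own windows, 0.37 with the listed mean and -0.12 with length. These points share libraries and, within families, sequence, and the correlations are weak. Median listed means were 79.5 normalised counts at 95% and over against 32.8 from 90 to 95%, 12.6 from 85 to 90% and 10.3 under 85%, so level moved with identity too, and its part was not tested.

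**Figure D4:**
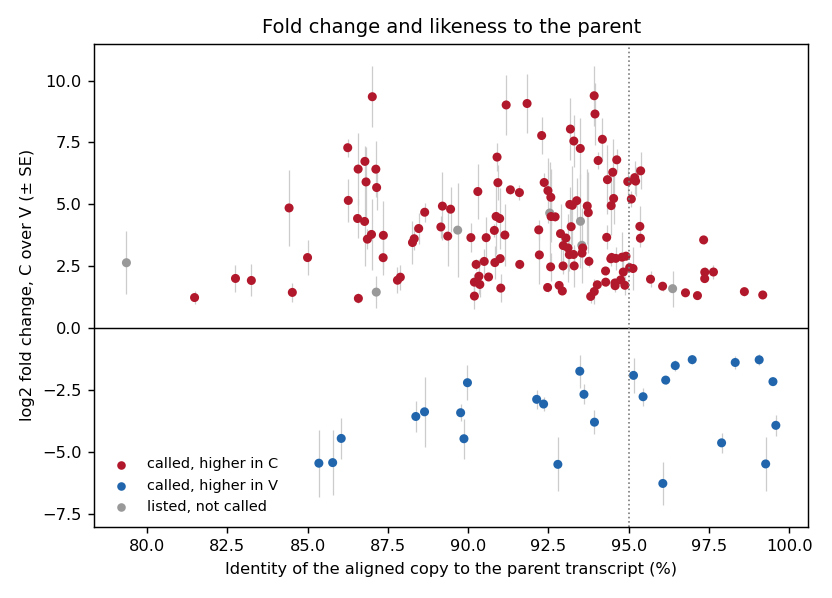
Identity of the aligned part of each copy to its parent's transcript (horizontal axis, %) and listed log2 fold change of C over V with its standard error (vertical axis) for the 164 listed copies; red points were called higher in C, blue points higher in V, grey points were not called, and the dotted line marks 95%. Called points above a log2 fold change of 4 end at 95.4% identity.

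Many members lie inside other genes. In GENCODE release 29, 85 of the 164 overlap another annotated gene and 72 lie inside a protein-coding gene, 35 on its strand and 37 on the other. The share inside a coding gene was 43.9% for listed and 36.7% for unlisted copies, and 55 of the 131 members called on the C side and 12 of the 26 on the V side were inside one. Exon overlap with another gene was found for 11 members. Strand use in the authors' counting is not given in the sources used here, so reads of a copy and of a gene over it cannot be told apart.

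For 9 members the protein-coding gene around them is listed too, and 6 of these lay on the side of that gene. COX7CP1 lies in an intron of FNDC3A (-2.23 ± 0.08), HNRNPA1P7 in one of GAREM1 (-1.75 ± 0.20) and HNRNPA1P40 in one of PGM2L1 (-2.40 ± 0.31), each of them on the V side in the authors' deposited table. ACTG1P12 lies in SYN2 (3.71 ± 0.59), HMGN2P40 in CLN6 (1.34 ± 0.14) and NPM1P3 in RBFOX1 (2.34 ± 0.84), all higher in C per the authors' deposited table. The opposite held for COX20P1 in TET1 (2.03 ± 0.22), HMGB1P21 in LHFPL2 (-1.71 ± 0.18) and TPT1P8 in KCNU1 (-4.47 ± 1.67), where the copies stood at -1.39 ± 0.26, 3.66 ± 0.58 and 3.59 ± 0.40 in the authors' deposited table. None of these 9 overlaps an exon of the gene around it. COX7CP1, HNRNPA1P40 and HMGN2P40 lie on the other strand from that gene and the rest on its strand, among them each copy on the opposite side. Listed means were low for KCNU1 (1.81), NPM1P3 (2.90) and HMGN2P40 (4.16). Whether reads of these genes were counted on the copies was not tested.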

How the data were processed

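RNA sequencing of 3 parental and 3 abiraterone-selected C4-2B libraries was used through 1 table, the authors' DESeq2 comparison of C with V; it holds no value per library, and depth is unknown. The mean over all samples is a signal value in DESeq2-normalised counts, per the file headers. Log2 fold changes are maximum likelihood estimates by the authors. Standard errors and Wald statistics are deposited as score columns. Each deposited p-value is from a Wald test, with Benjamini-Hochberg adjusted values beside it. Submitters' processing notes name FastQC and Cufflinks 2.2.1; which aligner, counter and genome build served is not given in the sources used here. The labels name 2 TruSeq kits, 1 of them stranded, without saying which library had which. They do not state separate cultures, so p-values reflect only how these libraries vary, which may be technical.

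Largest p in the table is 0.04998, so it is a selected list. For 4 genes an adjusted p of 0 stands beside a p above 0 and was read as not given. No test was added. Members and lists were chosen with earlier results of these data known. Of the identifiers, 5935 are in GENCODE 29 and 83 are not; 8 members took their symbol from the Ensembl ID alone, and current symbols gave as many members. Longest transcripts of copies were aligned to coding transcripts of the parent with Biopython 1.88 (local, match 2, mismatch penalty 3, gap opening 5, extension 2). Windows of 50 bases were searched on both strands in 206534 transcripts; introns and intergenic sequence were not searched. This code was tested on simulated copies. Sequences are printed only for copies of EEF1A1, GAPDH, PPIA and COX7C. Named genes were the listed parents, the 8 called members with the smallest p on each side, per family of at least 3 the highest mean and the largest fold above a mean of 20, members of smaller families, and 6 members by mean inside a listed gene; further members inside listed genes and further copies were named after their values were seen.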

Additional observations from a re-analysis of the deposited data

How the results depend on the processing

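The share of called members higher in C was 83.4%. Its 95% exact binomial interval, 76.7 to 88.9%, treats copies as independent, which they are not, and does not measure how libraries vary. The share ran from 81.5% to 94.6% over 15 other settings, 3 of them chosen after the data were seen, and stayed above 50% in each. With a mean of at least 100 it was 94.6%, with 35 members higher in C and 2 higher in V, EEF1A1P6 and ATP5F1EP2. Copies on the side of a listed parent, which is the C side for each such parent, then made up 100% of 14. Members under 95% identity gave 89.0%, with 14 higher in V. Members that overlap no other gene gave 66 higher in C and 11 higher in V. These settings count fewer members. No paired analysis was possible because the table holds no value per library, and leaving out a replicate could not be run for the same reason. Counts are better determined for copies with more reads; the 49 called members with a derived level under 1 on a side are the least certain in size.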
